A study of Mus musculus with 21 samples.

Results

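B-cell depletion during combined checkpoint blockade was examined in 10 of the 21 sequenced libraries of Hepa1-6 tumours grown in C57BL/6 mice. Hepa1-6 is a mouse hepatoma cell line. The 5 libraries of the B-depleted arm carry the genotype label B-cell depletion and the 5 of the control arm the label WT, and all 10 received antibody to PD1 together with antibody to CTLA4. The members were picked out by these labels and not by a measured value, though with earlier results of these data known. Every gene was considered. The other 11 libraries, 5 WT and 6 B-depleted, received isotype antibody and served as the same comparison without the checkpoint antibodies. The sources used here do not state how B cells were depleted, the antibody doses, the age and sex of the mice or the site of the tumour. The labels do not say that each library is a separate mouse, so p-values measure the spread between these samples, which may be technical.

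B cells carry an antigen receptor whose signalling chains are Cd79a and Cd79b, together with surface proteins such as CD20, and some mature into plasma cells that secrete antibody. They also present antigen on MHC class II to CD4+ T cells. PD1 and CTLA4 are inhibitory receptors of T cells, and antibodies against them are given in hepatocellular carcinoma to release T cells that kill with granzymes and perforin and secrete interferon-gamma. The series asks what part B cells play in the response to this pair of antibodies.

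With B cells depleted, many transcripts of B cells, plasma cells, T cells and regulatory T cells were lower than in WT tumours under the same antibodies. Many interferon-stimulated, antigen presentation, macrophage and lysosomal transcripts were lower too. Many transcripts of hepatocyte regulators, plasma proteins, the cell cycle, cholesterol synthesis and ribosomes were higher. A gene was called changed at an adjusted p (Benjamini-Hochberg) below 0.05 in edgeR's quasi-likelihood test over 19061 genes. In all, 5545 genes were called (29.1% of those tested), 2963 of them higher (15.5%) and 2582 lower (13.5%) in the B-depleted arm. Of these, 1244 changed at least 2-fold, 512 up and 732 down, and the median size of a called change was 0.601 on the log2 scale. The 2 arms did not overlap in 2009 genes (10.5%), with all B-depleted libraries above all WT libraries in 859 (4.51%) and below them in 1150 (6.03%). The shares of 15.5% called higher and 13.5% called lower are the background for the counts of each gene list below. Changes are log2 fold changes ± SE, B-depleted minus WT, and levels are CPM, a gene's counts scaled to a common library total. Values in order refer to replicates 1 to 5 of an arm, called WT_combo and Bdep_combo.

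The libraries differed in ways other than the label. WT_combo libraries held 15347618 to 17782981 counts and Bdep_combo libraries 9523017 to 14005178 counts; thinned to the shallowest library, 4579 genes were called. The summed level of the Y-linked genes was 156, 206, 134.7, 248.5 and 250.5 CPM in WT_combo and 100.1, 108.8, 85.88, 102.4 and 168.8 CPM in Bdep_combo, so that 4 of the 5 Bdep_combo libraries lay below all WT_combo libraries. Ddx3y, a Y-linked gene, moved with that sum (-0.78 ± 0.24, adjusted p = 0.0262), a call that held only without WT_combo replicate 1, 2 or 3 or Bdep_combo replicate 5. Xist, which is transcribed from the inactive X chromosome, went the opposite way, at 2285, 1514, 2194, 968 and 722 CPM in WT_combo and 2628, 2752, 2985, 2215 and 1079 CPM in Bdep_combo (adjusted p = 0.0973). With the Y-linked level as a covariate 4 genes were called instead of 5545, and 139 of the 5545 took the opposite sign. In that fit the covariate and the depletion label overlap, because the arms differ in both. The part of this level in each result was not tested, and the median of each gene list that is described is given also with the Y-linked covariate.

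Single libraries also stood apart. Of the 6 isotype libraries labelled B-depleted, replicates 3 and 5 held immunoglobulin constant genes at 243.3 and 262.3 CPM, within the WT isotype range of 14.46 to 656.8 CPM, against 4.946 to 15.48 CPM in the other 4. Cd79a was at 0.6412 CPM in replicate 3 and at 0.1187 CPM in replicate 5, against 0.133 to 0.6072 CPM in WT isotype. Leaving out both libraries, an alternative chosen after the data were seen, gave 5695 genes called under the combination. Bdep_combo replicate 5 was the only B-depleted library with a first principal component (-5.06) within the WT_combo range (-61.9 to 6.36), and it had the highest level of the neutrophil gene Mmp9; without it 7606 genes were called. Without WT_combo replicate 4 or 5 the count was 2182 and 2251, and without Bdep_combo replicate 1, 3 or 4 it was 3635, 3042 and 3336. Skeletal muscle genes summed to 60.6 to 393 CPM in WT_combo and 12.7 to 76.1 CPM in Bdep_combo. Adipocyte genes summed to 101 to 914 CPM in Bdep_combo (median 109) and 112 to 165 CPM in WT_combo. Mitochondrially encoded genes, taken as one sign of RNA quality, had 0 of 10 called (median 0.0923, -0.124 with the Y-linked covariate); mt-Co1 was at 7895 ± 1992 (SD, n = 5) and 8600 ± 1216 CPM, and mt-Nd1 at 1207 ± 421 and 1424 ± 153 CPM. Both signs turned with the Y-linked covariate (-0.08 and -0.02). In the immediate early and handling stress list, 3 of 18 genes rose and 3 fell (median 0.119, 0.19 with the Y-linked covariate). These counts are near the shares of 15.5% higher and 13.5% lower over all genes. In bulk tumour RNA, fewer cells of a type and less RNA per cell cannot be told apart.

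Cd79a and Ms4a1 transcripts were near 0 in most B-depleted libraries, while other B-lineage transcripts remained measurable. Cd79a, a signalling chain of the antigen receptor (ENSMUSG00000003379.7, GRCm38 chromosome 7, 24897381 to 24902197), was at 0.844, 2.09, 0.881, 2.19 and 2.8 CPM in WT_combo and at 0, 0, 0, 0 and 0.428 CPM in Bdep_combo. All 5 B-depleted libraries lay below all WT libraries (-4.11 ± 0.82, adjusted p = 0.0055). Ms4a1, which encodes CD20, was at 1.35, 3.55, 0.944, 5.58 and 4.89 CPM and at 0, 0.308, 0, 0 and 1.57 CPM, where Bdep_combo replicate 5 exceeded the 2 lowest WT libraries (-3.00 ± 0.80, adjusted p = 0.0146). A count of 0 in a B-depleted library allows up to 0.214 to 0.315 CPM, the level of 3 counts at its depth, and this limit covers counting error only.

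The list of 18 B-cell identity genes summed to 156 to 304 CPM in WT_combo and 107 to 175 CPM in Bdep_combo. Of the 18, 13 passed the filter on low counts, and 9 fell, 1 rose and 3 did not pass (median -1.77, against 0.00337 over all genes). Members high in 1 arm pass this filter more easily, which tilts such counts. With no filter all 18 were tested, and 11 fell and 1 rose (median -2.08). Cd79b, the partner of Cd79a, was at 1.86, 4.06, 1.51, 4.39 and 6.52 CPM and at 0.945, 0.847, 0.67, 1.46 and 1.43 CPM (-1.77 ± 0.46, adjusted p = 0.0129), and Pou2af1, a B-cell transcription coactivator, went from 6.26 ± 4.9 to 0.381 ± 0.337 CPM (-4.01 ± 0.99). The gene that rose was Pax5, the transcription factor that holds B-cell identity. It was at 17.8, 12.6, 20.1, 12 and 10.5 CPM in WT_combo and 19.1, 25, 27.8, 30.3 and 18.9 CPM in Bdep_combo (0.71 ± 0.21, adjusted p = 0.0214), the opposite direction to Cd79a and Cd79b. In isotype libraries Pax5 was at 30.1 ± 5.84 CPM in WT and 26.9 ± 7.29 CPM in B-depleted tumours, above the WT_combo mean. Its call was lost without WT_combo replicate 4 (0.0638) or 5 (0.0662) or Bdep_combo replicate 3 (0.0529) or 4 (0.0593), while those of Cd79a, Ms4a1, Cd79b and Pou2af1 held without any 1 of the 10 libraries. With the Y-linked covariate the list median was -0.436, and Cd79a and Cd79b were at -2.73 and -0.36, not called.

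Antibody transcripts were among the largest falls. The immunoglobulin constant genes summed to 82.78, 691.3, 204.6, 498.1 and 1379 CPM in WT_combo and to 25.41, 46.45, 3.647, 21.69 and 25.63 CPM in Bdep_combo, so every B-depleted library lay below every WT library. Ighg2b, the IgG2b heavy chain, was at 5.74, 74.9, 19.9, 36.5 and 105 CPM and at 0.42, 0.077, 0, 0.0812 and 0.428 CPM (-7.92 ± 1.40, adjusted p = 0.00458), though not called by limma voom. Igkc, the kappa light chain, was at 27.9, 256, 66.9, 166 and 504 CPM and at 8.93, 15.4, 0.298, 2.6 and 8.57 CPM (-4.86 ± 1.37, adjusted p = 0.0172, and 0.05 without WT_combo replicate 5) and was not called with no filter on low counts. Ighm, the IgM heavy chain, fell by less (-2.78 ± 0.63) and was still at 7.04, 8.55, 3.27, 15.3 and 8.35 CPM in Bdep_combo. The IgG constant genes are similar in sequence, so the split of reads between Ighg2b and Ighg2c (-7.57, likewise not called by limma voom) is uncertain, and Iglc1 rested on 1 count in the whole B-depleted arm and is given no fold.

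Of 19 plasma cell and immunoglobulin constant genes 13 were tested and 9 fell (median -3.09, -1.17 with the Y-linked covariate). Jchain, which joins IgM and IgA into polymers, went from 21.8 ± 14 to 1.43 ± 1.43 CPM (-3.91 ± 1.21), and its call was lost without WT_combo replicate 4 (0.0534) or 5 (0.0624) or Bdep_combo replicate 1 (0.0565), 3 (0.0592) or 4 (0.058). The list count was 5 without WT_combo replicate 5 and 5 by limma voom. The 382 immunoglobulin gene segments in the file summed to 22.72, 245.9, 75.48, 167.6 and 533.7 CPM in WT_combo and to 7.456, 12.79, 0.3721, 3.087 and 6.855 CPM in Bdep_combo. Only 22 of them passed the filter on low counts, which members high in 1 arm pass more easily, so no count of falls is given. Thinned to 1 depth, 62 to 141 segments had a count in a WT_combo library and 3 to 47 in a Bdep_combo library. Levels in WT_combo themselves ran over more than 10-fold, from 82.78 CPM in replicate 1 to 1379 CPM in replicate 5.

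**Figure D1:**
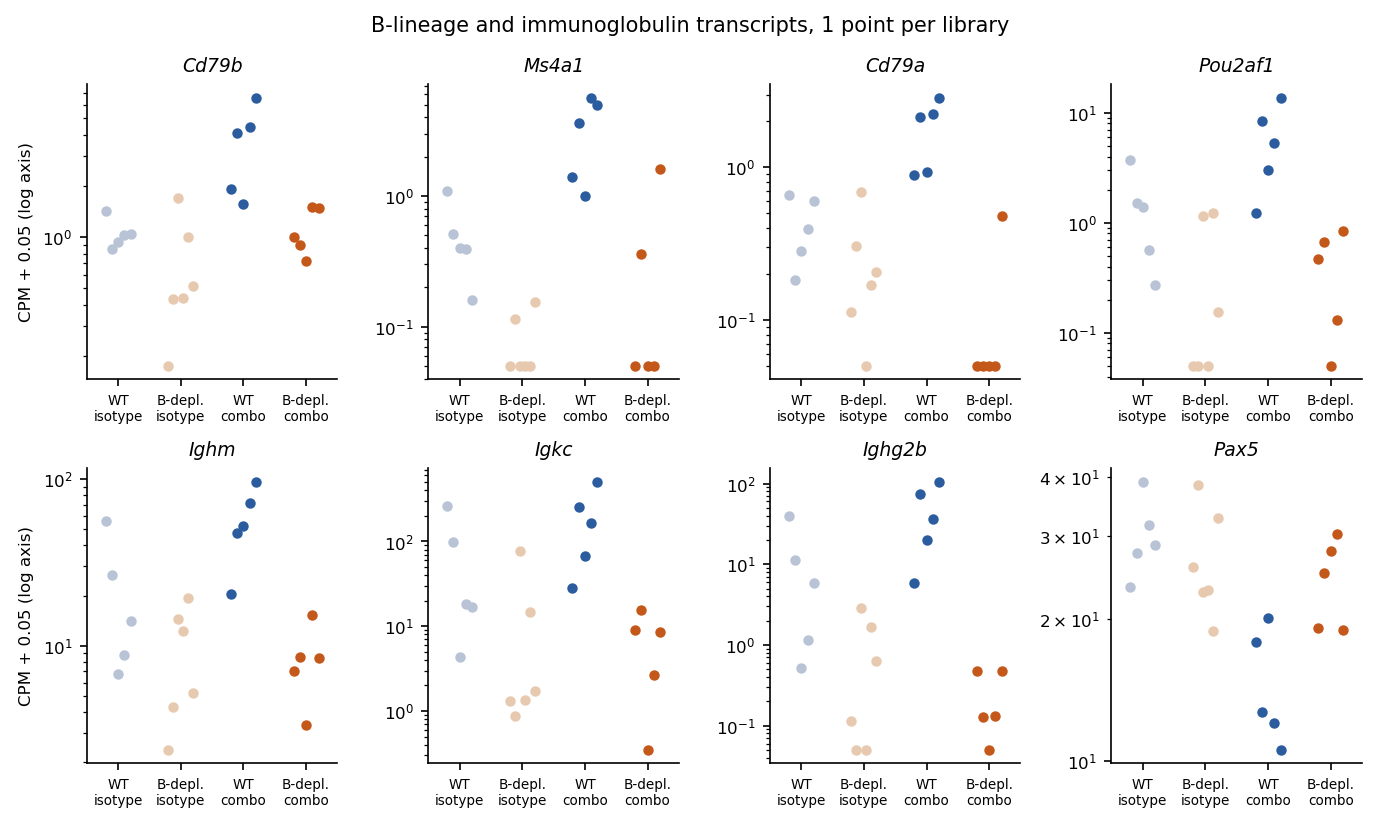
Level of 8 B-lineage and antibody genes in each of the 21 libraries, as CPM plus 0.05 on a log axis, with 1 point per library and the 4 arms side by side. In the B-depleted combination arm 3 of 5 libraries are at 0 for Ms4a1 and 4 of 5 for Cd79a, while for Pax5 3 of its 5 libraries lie above all WT combination libraries.

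T-cell receptor and signalling transcripts were mostly lower in B-depleted tumours. Cd3e, a chain of the T-cell receptor complex, was at 102, 103, 86.8, 119.9 and 106 CPM in WT_combo and at 55.1, 71, 49.8, 57 and 59.98 CPM in Bdep_combo, with no overlap (-0.83 ± 0.27, adjusted p = 0.028). Cd4 was at 42.3, 50.7, 29.6, 73.2 and 78 CPM and at 16.3, 22.6, 7.67, 13.9 and 26.8 CPM, also with no overlap (-1.66 ± 0.48, adjusted p = 0.0186). Cd8a was at 107, 97.3, 75.5, 126 and 107 CPM and at 71.1, 70.6, 59.6, 72.7 and 68.3 CPM, and although every B-depleted library lay below every WT library it did not pass (-0.60 ± 0.24, adjusted p = 0.0694). Of 16 genes of the receptor complex and coreceptors 13 fell, and of 18 tested genes of T-cell signalling and costimulation 18 fell (medians -0.871 and -0.902; -0.264 and -0.345 with the Y-linked covariate).

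The costimulatory receptor Icos (ENSMUSG00000026009.14) was at 32.2, 41.2, 24.9, 45.3 and 42.9 CPM in WT_combo and at 13.9, 11.3, 9.53, 10.9 and 16.2 CPM in Bdep_combo (-1.60 ± 0.32, adjusted p = 0.00596). The lowest WT library thus stood above the highest B-depleted library. Slamf6, a receptor of activated and progenitor T cells (-1.48 ± 0.37), Cd226, an activating receptor (-1.16 ± 0.31), the adhesion receptor Cd2 (-1.22 ± 0.30) and Cd5, which dampens receptor signalling (-1.22 ± 0.33), fell too, and these 5 calls held without any 1 library. Those of Cd3e and Cd4 were lost without WT_combo replicate 4 (0.0712) or 5 (0.06) or Bdep_combo replicate 1 (0.0596), 3 (0.0691) or 4 (0.0564) for Cd3e, and without WT_combo replicate 4 (0.0527) or 5 (0.0543) for Cd4. Cd8a was called without WT_combo replicate 3. The receptor complex count was 5 without WT_combo replicate 4, 4 without replicate 5 and 5 without Bdep_combo replicate 3, and the signalling count was 11 without WT_combo replicate 5. The 254 T-cell receptor gene segments in the file summed to 106.1 to 171.4 CPM in WT_combo and 62.26 to 91.82 CPM in Bdep_combo.

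Regulatory T-cell genes fell in 7 of 11 cases (median -0.979, -0.352 with the Y-linked covariate). Foxp3, the transcription factor of this lineage, was at 6.07, 14.5, 8.05, 10.02 and 11.5 CPM in WT_combo and at 3.67, 2.54, 0.447, 3.74 and 4.36 CPM in Bdep_combo (-1.78 ± 0.52, adjusted p = 0.0194). No B-depleted library reached the lowest WT library. Thinned to the shallowest library, Foxp3 was no longer called. Il2ra, the high-affinity chain of the interleukin-2 receptor, was at 20.2, 32.7, 21.6, 22.1 and 22 CPM and at 10.7, 8.09, 8.71, 7.72 and 9.78 CPM (-1.41 ± 0.32, adjusted p = 0.00883). Ccr8, a chemokine receptor of tumour regulatory T cells, fell as well (-1.27 ± 0.37).

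Of the antibody targets, Ctla4 fell and Pdcd1 did not pass. Ctla4 was at 13.9, 24.7, 17.4, 20.5 and 18.3 CPM in WT_combo and at 6.62, 7.16, 4.09, 9.5 and 12 CPM in Bdep_combo, without overlap (-1.27 ± 0.28, adjusted p = 0.00803). Pdcd1, which encodes PD1, was at 32.6, 34.5, 32.8, 39.8 and 36.1 CPM and at 25.1, 27.3, 20.8, 27 and 22.6 CPM (-0.54 ± 0.24, adjusted p = 0.0937), though it passed without the 2 isotype libraries named above (0.0345). The antibodies block the proteins, and these values are of the transcripts. Of 16 checkpoint and exhaustion receptor genes 8 fell and 0 rose (median -0.643, -0.217 with the Y-linked covariate), among them the inhibitory receptors Btla (-1.86 ± 0.42) and Cd200r1 (-0.99 ± 0.25). Cd274, the PD1 ligand, went from 372 ± 27.1 to 225 ± 73.4 CPM (-0.73 ± 0.22, adjusted p = 0.0209), a call lost without WT_combo replicate 5 (0.0549) or Bdep_combo replicate 2 (0.0552), 3 (0.0529) or 4 (0.0507). The list count was 5 without WT_combo replicate 5 or Bdep_combo replicate 2, 3 or 4.

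Among killing genes, Gzmb, which encodes granzyme B, was at 75.4, 46.1, 36.8, 46.5 and 55.1 CPM in WT_combo and at 28.1, 21.7, 30.8, 25.1 and 28.4 CPM in Bdep_combo (-0.96 ± 0.24, adjusted p = 0.0109), and its call held without any 1 library. Prf1, the pore-forming perforin, was at 67.4, 51.7, 58.8, 69.8 and 68.9 CPM and at 53.2, 38.8, 48.1, 41.9 and 47.5 CPM; a single B-depleted library, replicate 1, exceeded the lowest WT library, and the change did not pass (-0.48 ± 0.20, adjusted p = 0.0709; 0.0413 without the same 2 isotype libraries). Ifng, the gene of interferon-gamma, went from 9.44 ± 1.61 to 4.81 ± 0.97 CPM (-0.99 ± 0.30, adjusted p = 0.0239, lost without WT_combo replicate 2 (0.0524) or 4 (0.0638) or Bdep_combo replicate 3 (0.0632) or 4 (0.0585)). The T-cell chemokine Ccl5 went from 203 ± 38.3 to 91.8 ± 19 CPM (-1.16 ± 0.33, lost without WT_combo replicate 4 (0.0501)). Of 19 cytotoxic effector genes 8 fell and 11 did not pass (median -0.871, -0.259 with the Y-linked covariate). That count was 2 to 5 without WT_combo replicate 2, 4 or 5 or Bdep_combo replicate 1, 2, 3 or 4.

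**Figure D2:**
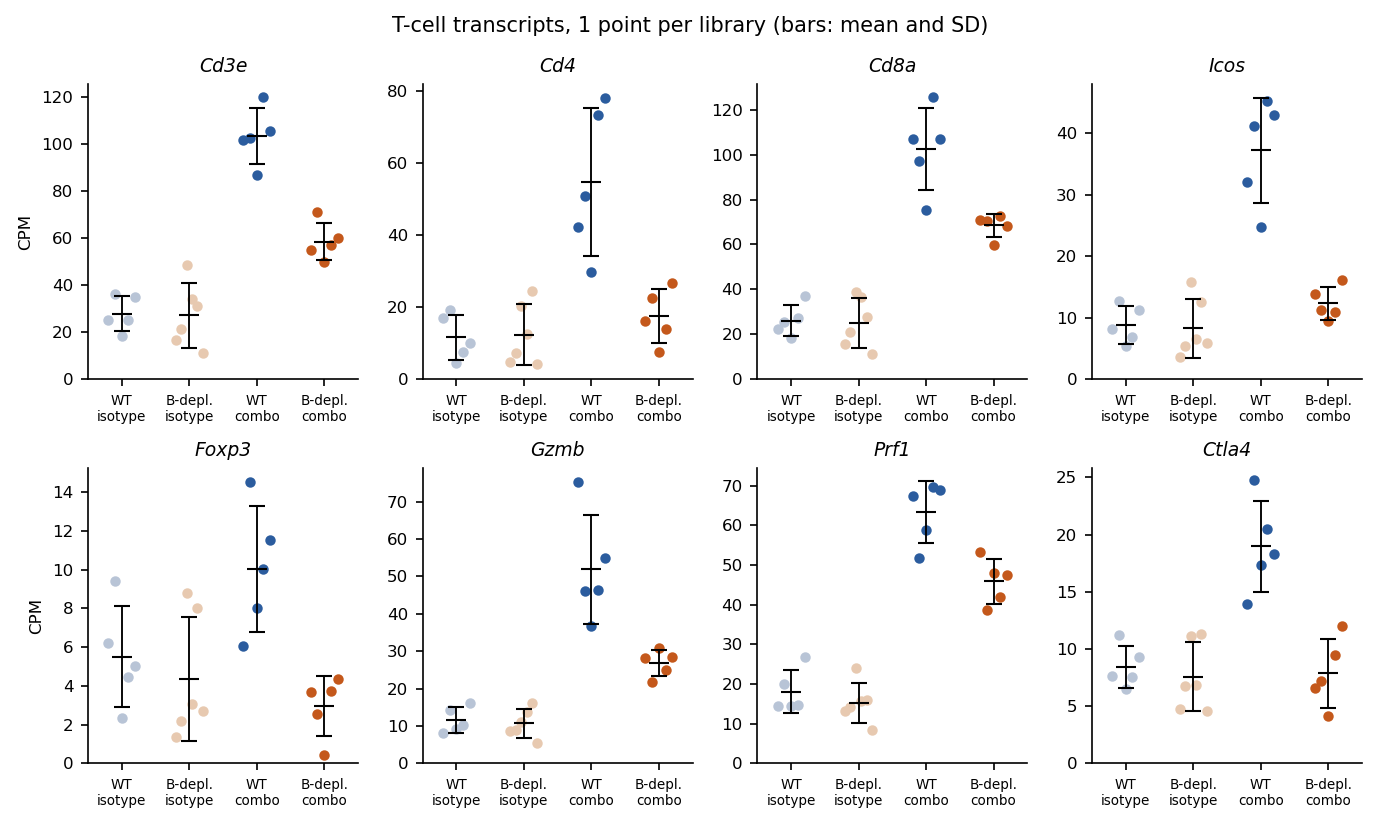
Level of 8 T-cell genes in CPM in each of the 21 libraries, with the mean and SD of each arm as bars. Cd3e, Cd4, Cd8a, Icos, Foxp3, Gzmb and Ctla4 show no overlap between the WT and B-depleted combination arms, while Prf1 does.

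How the T-cell transcripts stood relative to each other within a library was described by 6 ratios, chosen after the data were seen. A ratio of levels of 2 genes cancels depth and scaling, and its absolute value depends on gene length. Because of that choice they are a description and carry no test. Cd4 per Cd8a was 0.396, 0.521, 0.392, 0.583 and 0.729 in WT_combo and 0.229, 0.321, 0.129, 0.191 and 0.392 in Bdep_combo (-1.12 on the log2 scale). With the Y-linked covariate the fitted change of Cd4 minus that of Cd8a was -0.21. Only Bdep_combo replicate 5 reached the lowest WT value. Foxp3 per Cd3e went from 0.0973 ± 0.0304 to 0.0499 ± 0.027 (SD, n = 5 each; -1.23, against -0.287 for the 2 genes' fitted changes with the Y-linked covariate). Icos per Cd3e went from 0.358 ± 0.0535 to 0.213 ± 0.0463, with all WT_combo libraries above all B-depleted ones (-0.763, against -0.388 with the covariate). Cd8a per Cd3e was 0.985 ± 0.0767 in WT_combo and 1.18 ± 0.12 in Bdep_combo (0.256, against 0.176 with the covariate). Gzmb per Cd8a was 0.51 ± 0.122 and 0.396 ± 0.0797, and Pdcd1 per Cd8a 0.35 ± 0.0507 and 0.358 ± 0.0214, in the same order.

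Genes listed as transcription factors of T-cell states moved in both directions. Of 19 in the list 9 fell and 2 rose (median -0.593, -0.117 with the Y-linked covariate). Irf4, which acts downstream of antigen receptor signalling, went from 28.9 ± 8.28 to 12.2 ± 2.29 CPM (-1.26 ± 0.33), and Gata3, a helper T-cell factor, from 13.7 ± 3.48 to 6.15 ± 0.759 CPM (-1.17 ± 0.30). Lef1, a Wnt pathway factor of naive T cells, fell (-0.63 ± 0.14). Tcf7, its partner in naive and memory T cells, rose: it was at 57.8, 67.6, 72.7, 34.7 and 33.6 CPM in WT_combo and 102, 109, 75.5, 108 and 56 CPM in Bdep_combo (0.73 ± 0.20, adjusted p = 0.0154), and was not called when only the 10 libraries were fitted. Its arms overlapped through Bdep_combo replicate 5. Tcf7 was lowest in WT_combo replicates 4 and 5, where Apob was lowest too and Cd3e was not. Which cells of the bulk tumour made Tcf7 was not tested. The fall count was 5 without WT_combo replicate 4 or Bdep_combo replicate 3. Rora, a nuclear receptor of lymphocytes among other cells, and Cblb, a ubiquitin ligase that restrains T-cell activation, were among the 6 falls of smallest p, at -0.72 ± 0.10 and -0.45 ± 0.07 (adjusted p = 0.0026 for both). Their values with the Y-linked covariate were -0.71 and -0.38.

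Some of the receptors and ligands that guide lymphocytes fell, and most chemokines did not pass. Cxcr3, the receptor for interferon-induced chemokines on effector T cells, was at 12.2, 19.3, 9.88, 23.7 and 20.9 CPM in WT_combo and at 5.25, 4.54, 3.87, 3.9 and 5.64 CPM in Bdep_combo (-1.90 ± 0.37, adjusted p = 0.00527). Ccr6, a receptor of B cells and helper T cells, fell from 1.26 ± 0.65 to 0.174 ± 0.162 CPM (-2.79 ± 0.66), and Il7r, the interleukin-7 receptor, from 76.8 ± 16.8 to 34.2 ± 13.2 CPM (-1.17 ± 0.26). Of 18 chemokine receptors tested 9 fell (5 without WT_combo replicate 4, 4 without replicate 5, 5 without Bdep_combo replicate 3), and of 26 chemokines 7 fell (4 without WT_combo replicate 4, 12 without Bdep_combo replicate 5). Medians were -1.14 and -0.319, or -0.201 and -0.146 with the Y-linked covariate. The chemokines that fell most were Ccl11, which draws eosinophils (-1.90 ± 0.48), Ccl8 (-1.58 ± 0.36) and Ccl22, which draws regulatory T cells (-1.33 ± 0.35). Cxcl9, a ligand of Cxcr3, did not pass, going from 481 ± 90.7 to 300 ± 59 CPM (-0.70 ± 0.34, adjusted p = 0.118). Cxcl13, the B-cell chemokine of lymphoid aggregates, was at 0.844, 0.507, 1.26, 1.19 and 25.3 CPM and at 0.42, 1.08, 0.0744, 4.55 and 0.643 CPM; its WT mean rests on WT_combo replicate 5, without which the sign turned (0.49, adjusted p = 0.771).

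Of the type I interferon-stimulated genes about as many fell as did not pass. The promoters of 3 genes that fell are printed to show where the interferon element lies in them. Ifit1 and Ifit3b belong to that list, and B2m, the class I light chain gene, to the MHC class I list. They were chosen from the called and named genes because they hold a match to the element. Interferon acts through a response element that STAT and IRF factors bind. Its core was searched as GAAA followed by any 2 bases and GAAA again, on either strand, and capitals mark each match in the 250 bases before the RefSeq start (GRCm38.p6).
Ifit1, chr19:34640639-34640888, plus strand: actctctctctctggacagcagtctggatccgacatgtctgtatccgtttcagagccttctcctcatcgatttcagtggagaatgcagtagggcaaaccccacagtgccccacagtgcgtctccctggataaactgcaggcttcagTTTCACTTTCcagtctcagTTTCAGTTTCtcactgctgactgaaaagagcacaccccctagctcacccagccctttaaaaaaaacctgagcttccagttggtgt
Ifit3b, chr19:34607707-34607956, plus strand: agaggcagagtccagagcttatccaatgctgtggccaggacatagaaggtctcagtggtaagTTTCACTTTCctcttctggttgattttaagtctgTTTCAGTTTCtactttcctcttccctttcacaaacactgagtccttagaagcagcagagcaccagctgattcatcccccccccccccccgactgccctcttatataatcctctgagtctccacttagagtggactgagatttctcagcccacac
B2m, chr2:122147437-122147686, plus strand: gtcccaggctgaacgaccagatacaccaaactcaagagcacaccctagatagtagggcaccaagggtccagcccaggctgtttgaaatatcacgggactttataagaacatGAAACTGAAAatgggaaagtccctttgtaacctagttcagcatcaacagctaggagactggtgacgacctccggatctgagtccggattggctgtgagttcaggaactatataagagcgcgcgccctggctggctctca

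RefSeq windows were found for 20 of the 26 type I interferon-stimulated genes and for 20 of the 31 interferon-gamma pathway genes. They were also found for 20 of the 22 MHC class I and peptide loading genes. The core was present in 9 of the 20 type I genes (45%) and in 11 of the 20 interferon-gamma pathway genes (55%). It was present in 3 of the 20 class I genes (15%), against 3.46% of 27025 genes with a window. A match is a description of the letters and not a sign that a factor was bound. Ifit1, an antiviral RNA-binding protein (ENSMUSG00000034459.8), was at 21.4, 23.5, 21.4, 29.7 and 31.5 CPM in WT_combo and at 12.9, 12.9, 11.2, 13.7 and 11.2 CPM in Bdep_combo, without overlap (-1.06 ± 0.22, adjusted p = 0.00628). Ifit3b went from 7.22 ± 1.3 to 3.19 ± 1.06 CPM (-1.20 ± 0.34, 0.0526 without WT_combo replicate 4). It has near-identical neighbours, among them Ifit3 (-1.06), between which reads can be split. The call of Ifit3 was lost without WT_combo replicate 2 (0.0651), 4 (0.0803) or 5 (0.0753) or Bdep_combo replicate 2 (0.0526), 3 (0.084), 4 (0.0541) or 5 (0.0526).

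Of the 26 type I interferon-stimulated genes 14 fell and 0 rose (median -0.585, -0.316 with the Y-linked covariate). That count was 9 without WT_combo replicate 2, 5 without replicate 4, 3 without replicate 5, and 7, 8 and 9 without Bdep_combo replicate 2, 3 and 4. In the interferon-gamma pathway list 10 of 31 fell and 1 rose (median -0.534, -0.383 with the Y-linked covariate), with Gbp8, an interferon-induced GTPase, going from 193 ± 29.6 to 113 ± 8.43 CPM (-0.79 ± 0.24, lost without WT_combo replicate 4 (0.0662) or 5 (0.0529)). Its fall count was 5, 3 and 5 without WT_combo replicate 2, 4 and 5, and 6, 6 and 5 without Bdep_combo replicate 2, 3 and 4. It was 24 when only the 10 libraries were fitted. The summed level of the type I genes was 1530 to 1670 CPM in WT_combo and 1100 to 1220 CPM in Bdep_combo.

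Some antigen presentation genes fell in both classes. B2m, the light chain of all class I molecules, was at 2108, 1852, 1612, 2087 and 1974 CPM in WT_combo and at 1531, 1185, 1318, 1442 and 1356 CPM in Bdep_combo (-0.51 ± 0.10, adjusted p = 0.00581). H2-K1, a class I heavy chain, was at 669, 920.3, 683, 1159 and 1098 CPM and at 453, 437, 348, 388 and 539.7 CPM (-1.08 ± 0.28, adjusted p = 0.0131), and H2-Q7, one of a family of similar class I genes, fell as well (-1.02 ± 0.27). All WT libraries were above all B-depleted libraries for these 3 genes. Of 22 class I and peptide loading genes 9 fell (median -0.31, -0.229 with the Y-linked covariate), a count of 5 without WT_combo replicate 2 or Bdep_combo replicate 3 or 4. Of 12 class II genes 7 fell (median -0.773, -0.226 with the Y-linked covariate). This count was 2 and 4 without WT_combo replicate 4 and 5, and 4, 3 and 4 without Bdep_combo replicate 1, 3 and 4.

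Within class II, H2-Aa, an alpha chain, was at 1266, 1498, 1282, 1964 and 1754 CPM in WT_combo and at 818, 845, 618, 739 and 693 CPM in Bdep_combo (-1.08 ± 0.30, adjusted p = 0.017, 0.0501 without WT_combo replicate 4). H2-Ob, a chain of the peptide-loading regulator that B cells and some dendritic cells make, went from 5.8 ± 2.56 to 1.65 ± 0.741 CPM (-1.81 ± 0.46). Cd74, the invariant chain, fell as well (-0.78 ± 0.27, adjusted p = 0.0383), a call that held only without WT_combo replicate 1 or 3. Ctss, the protease that trims the invariant chain, was at 1403, 1448, 1378, 2047 and 2020 CPM and at 664, 633, 582, 554 and 890 CPM (-1.33 ± 0.26, adjusted p = 0.00536), and its call held without any 1 library.

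Part of the macrophage and lysosomal genes fell too, with a lysosomal proton pump subunit as the gene of smallest p in the whole comparison. Which cells of the bulk tumour made the lysosomal transcripts was not tested. Atp6v0d2, a subunit of the proton pump of lysosomes and of bone-resorbing cells (ENSMUSG00000028238.6, chromosome 4, 19876841 to 19922605), was at 82, 72.1, 81.2, 131 and 111 CPM in WT_combo and at 42.3, 35.3, 44.5, 38.9 and 36.1 CPM in Bdep_combo. The lowest WT library lay well above the highest B-depleted one (-1.29 ± 0.16, adjusted p = 0.00132). It was 1 of the 4 genes called with the Y-linked covariate (-1.19, adjusted p = 0.0384). Creg1, a lysosomal glycoprotein (-1.07 ± 0.16), Ppt2, a lysosomal thioesterase (-0.88 ± 0.13), and Abhd18 (-0.65 ± 0.10) were also among the 6 falls of smallest p, and the cathepsin Ctsb fell from 1940 ± 594 to 1108 ± 306 CPM (-0.82 ± 0.20). Of 24 proton pump and cathepsin genes 15 fell and 0 rose (median -0.355, -0.162 with the Y-linked covariate), a count of 9 and 8 without WT_combo replicate 4 and 5.

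Nos2, which makes nitric oxide in activated macrophages, was at 269.6, 343, 309.5, 316 and 316 CPM in WT_combo and at 108, 72.6, 95.4, 88.7 and 221 CPM in Bdep_combo (-1.41 ± 0.26, adjusted p = 0.00512). Bdep_combo replicate 5 was the highest of its arm and still below every WT library. Mmp12, macrophage elastase, fell from 716 ± 49 to 361 ± 62.2 CPM (-1.001 ± 0.29), and Itgb2, the shared beta chain of leukocyte integrins, fell too (-0.89 ± 0.22). Adgre1, which encodes the macrophage marker F4/80, was at 138, 163, 110, 270.5 and 279.8 CPM and at 76.5, 81, 54, 94.6 and 163 CPM, and the arms overlapped through Bdep_combo replicate 5 (-1.04 ± 0.37, adjusted p = 0.0426). It held its call only without WT_combo replicate 1 or 3 or Bdep_combo replicate 5, and turned to 0.12 with the Y-linked covariate. Trem2, a lipid receptor of tumour macrophages, fell from 38.3 ± 12.2 to 18 ± 5.84 CPM (-1.10 ± 0.30, lost without WT_combo replicate 4 (0.0546) or 5 (0.0509)), whereas Spp1, the gene of osteopontin, did not pass (0.37 ± 0.24, adjusted p = 0.232). Of 17 macrophage genes tested 10 fell (median -0.798, -0.0779 with the Y-linked covariate). That count was 3 without WT_combo replicate 4 or 5 and 4, 5, 3 and 5 without Bdep_combo replicate 1, 2, 3 and 4.

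Dendritic cell genes fell in 8 of 15 cases (median -0.802, -0.253 with the Y-linked covariate), a count of 4, 3 and 3 without WT_combo replicate 4, WT_combo replicate 5 and Bdep_combo replicate 3. Cd209a, a lectin of monocyte-derived dendritic cells, went from 2.51 ± 1.19 to 0.52 ± 0.502 CPM (-2.28 ± 0.66), and Siglech, a receptor of plasmacytoid dendritic cells, from 4.53 ± 2.89 to 0.817 ± 0.448 CPM (-2.48 ± 0.73, lost without WT_combo replicate 5 (0.0607) or Bdep_combo replicate 3 (0.0542)). Of 20 complement genes tested 11 fell and 1 rose (median -0.689, -0.139 with the Y-linked covariate), led by C7, a component of the membrane attack complex (-3.54 ± 0.99, 0.0575 without WT_combo replicate 4). The fall count was 4 without WT_combo replicate 4 or 5, and 5, 7, 5 and 7 without Bdep_combo replicate 1, 2, 3 and 4. Neutrophil genes did not pass in any of 15 cases, and their median of 1.33 became -1.09 without Bdep_combo replicate 5 and was 1.87 with the Y-linked covariate. Il1b, an inflammatory cytokine, was at 26, 52.7, 22.1, 37.2 and 175 CPM in WT_combo and at 14.5, 12.2, 16.1, 51.6 and 689.7 CPM in Bdep_combo, and Mmp9, a gelatinase of neutrophils, at 93.7, 39.1, 82.9, 75 and 118 CPM and 85.1, 53.1, 114, 70.3 and 347 CPM. Bdep_combo replicate 5 was the highest of all 10 libraries in both.

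**Figure D3:**
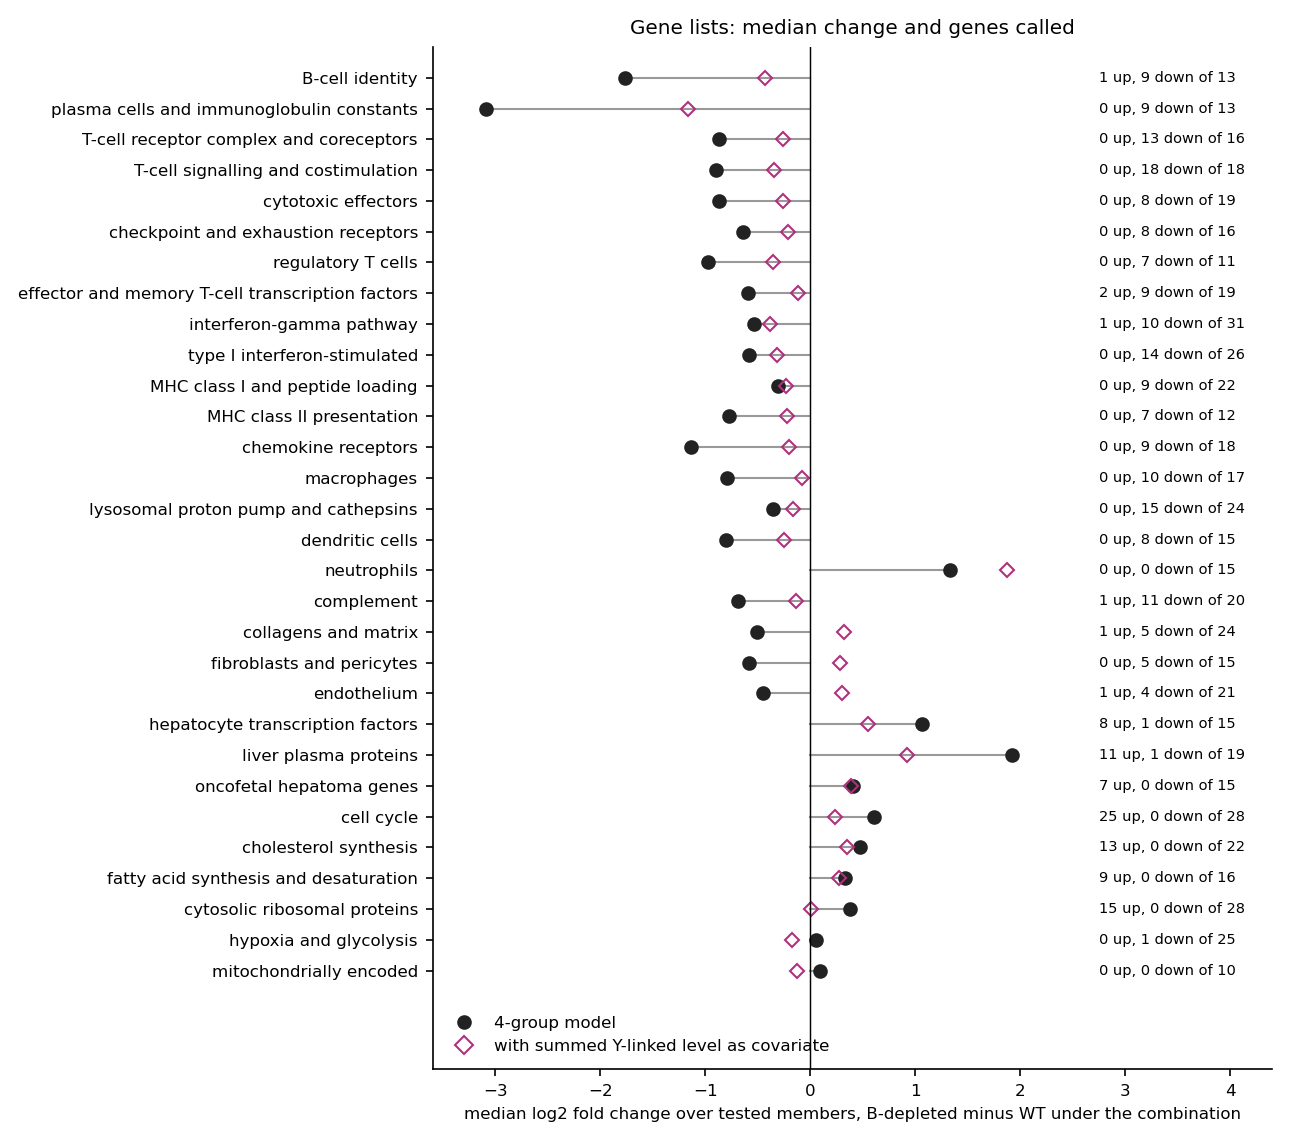
Median log2 fold change over the tested members of 30 gene lists, B-depleted minus WT under the combination, with the counts of genes called at the right. Filled circles come from the 4-group model and open diamonds from the fit with the Y-linked covariate, where the lymphoid, macrophage and dendritic cell medians lie nearer 0 and the collagen, fibroblast and endothelial medians lie above it.

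Stromal genes gave fewer calls and depended on single libraries. Their counts stand beside 15.5% called higher and 13.5% called lower over all genes tested. Col1a1, the main collagen of fibrous tissue, was at 3881, 5092, 3013, 10680 and 8733 CPM in WT_combo and at 2030, 3774, 1198, 1906 and 10790 CPM in Bdep_combo (-0.66 ± 0.49, adjusted p = 0.307). The highest of all 10 values was that of Bdep_combo replicate 5, without which Col1a1 was called, and with the Y-linked covariate the sign turned (0.52). Of 24 collagen and matrix genes 5 fell and 1 rose (median -0.506, 0.322 with the Y-linked covariate), and without Bdep_combo replicate 5 the fall count was 14. It was 2 and 3 without WT_combo replicate 4 and 5. Chains of collagen VI, which forms fine filaments around cells, were among those that fell: Col6a5 was at 42.4, 11.7, 10.2, 148 and 76.8 CPM and at 2.1, 10.3, 1.34, 2.03 and 0.928 CPM (-4.13 ± 0.93, adjusted p = 0.00822), and Col6a1 went from 499 ± 189.8 to 224 ± 95.8 CPM (-1.16 ± 0.30). Col6a6 (-3.78 ± 1.03) lost its call without WT_combo replicate 4 (0.0846). The versican-cleaving protease gene Adamts15 fell as well (-1.32 ± 0.31).

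Of 15 fibroblast and pericyte genes 5 fell, among them Fap, fibroblast activation protein (-1.19 ± 0.35, lost without WT_combo replicate 4 (0.0741) or 5 (0.0584) or Bdep_combo replicate 3 (0.0531)), with a median of -0.583 (0.281 with the Y-linked covariate). The count was 0 without WT_combo replicate 4 or 5, 1 to 3 without WT_combo replicate 2 or Bdep_combo replicate 1, 2, 3 or 4, and 9 without Bdep_combo replicate 5. Endothelial genes fell in 4 of 21 cases, against 13.5% of all genes tested, and 1 rose (median -0.448, 0.301 with the Y-linked covariate). That fall count was 0 to 2 without WT_combo replicate 2, 4 or 5 or Bdep_combo replicate 1, 2, 3 or 4, and 7 without Bdep_combo replicate 5. Pecam1, the endothelial adhesion protein CD31, did not pass (-0.35 ± 0.22, adjusted p = 0.224; 0.27 with the Y-linked covariate) but was called without Bdep_combo replicate 5. Of 16 skeletal muscle genes tested 10 fell (median -3.2, -2.46 with the Y-linked covariate), a count of 0 without WT_combo replicate 4 or 5 or Bdep_combo replicate 3 or 4, 5 without WT_combo replicate 2 and 2 without Bdep_combo replicate 2. Pvalb, a calcium buffer of fast muscle, was at 0.9, 2.41, 1.07, 6.41 and 9.58 CPM and 0.525, 0, 0, 0 and 0 CPM, and Myh4, a fast myosin, at 2.19, 8.12, 10, 47.2 and 52.3 CPM and 3.57, 0.077, 0, 0.244 and 1.36 CPM. Without WT_combo replicate 4 (0.0519) or 5 (0.0601) or Bdep_combo replicate 3 (0.0538) or 4 (0.0509), Pvalb was not called, and without WT_combo replicate 2 (0.0521), 4 (0.0923) or 5 (0.0963) or Bdep_combo replicate 2 (0.0863), 3 (0.0903) or 4 (0.0877), Myh4 was not called. The fall of Tchh, a hair follicle protein (-4.30), came from WT_combo replicate 2 alone, at 97.76 CPM against 2.411 CPM or less in the other 9 libraries (adjusted p = 0.269 without it).

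A number of liver-type transcripts were higher in B-depleted tumours. Apob, the structural protein of liver lipoproteins (ENSMUSG00000020609.14), was at 165, 146, 217, 57.6 and 29.5 CPM in WT_combo and at 374, 397, 223, 412 and 234 CPM in Bdep_combo, with the lowest B-depleted library just above the highest WT library (1.39 ± 0.35, adjusted p = 0.0116). Afp, the oncofetal protein of liver tumours, was at 115, 57.2, 252, 41.2 and 24.3 CPM and at 643, 434, 446, 557 and 298 CPM (2.25 ± 0.64, adjusted p = 0.018, lost without WT_combo replicate 4 (0.0548) or 5 (0.0508)). Alb, the gene of albumin, was at 447, 237, 717, 119 and 76.4 CPM and at 1293, 946, 1143, 956 and 241 CPM (1.48 ± 0.55, adjusted p = 0.0498), where Bdep_combo replicate 5 fell within the WT range. Alb was called in 2 of 10 refits, without WT_combo replicate 3 or Bdep_combo replicate 5. Apob was not called when only the 10 libraries were fitted, nor were Alb and Mki67. The same liver genes were lowest in WT_combo replicates 4 and 5, the libraries with the highest Y-linked levels.

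Transcription factors that hold hepatocyte identity rose in 8 of 15 cases and 1 fell (median 1.06, 0.553 with the Y-linked covariate). Hnf4a was at 48.5, 27, 58.8, 15.5 and 13.5 CPM in WT_combo and at 106, 83.1, 81.1, 116 and 62.8 CPM in Bdep_combo (1.44 ± 0.35, adjusted p = 0.0109). All 5 B-depleted libraries lay above all WT libraries. Nr5a2, a nuclear receptor of liver, rose as well, from 6.04 ± 3.81 to 18.4 ± 4.79 CPM (1.57 ± 0.43). The count was 3 and 4 without WT_combo replicate 4 and 5.

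Of 30 liver plasma protein genes 19 passed the filter on low counts, and 11 rose and 1 fell (median 1.92, 0.923 with the Y-linked covariate). With no filter the median over all 30 was 1.13. Gc, the vitamin D binding protein, was at 1.18, 0.444, 2.14, 0.652 and 0.0652 CPM in WT_combo and at 12, 4.7, 20.1, 4.39 and 6.36 CPM in Bdep_combo (3.36 ± 0.62, adjusted p = 0.00512), and Apoa1, the main protein of high-density lipoprotein, at 0.281, 0.0634, 0.818, 0.119 and 0.13 CPM and 4.3, 1.54, 3.87, 1.79 and 1.14 CPM (3.09 ± 0.85, adjusted p = 0.016). Both calls held without any 1 library, but limma voom did not call Apoa1. The rise count was 6 with limma voom, 2 with no filter on low counts and 7 with only the 10 libraries. It was 7, 5, 1 and 2 without WT_combo replicate 1, 2, 4 and 5, and 5 and 7 without Bdep_combo replicate 3 and 4. Further large rises were of Fga, a fibrinogen chain (5.81, lost without WT_combo replicate 4 (0.0527) or Bdep_combo replicate 3 (0.0935)), Elovl2, which elongates long fatty acids (3.45, lost without WT_combo replicate 4 (0.0565) or 5 (0.0529)), and the plasma protein Ambp (2.81), which was called only without WT_combo replicate 3 or Bdep_combo replicate 5 among the 10 refits. Of 15 oncofetal hepatoma genes 7 rose (median 0.408, 0.391 with the Y-linked covariate; 3 and 4 without WT_combo replicate 4 and 5), including the RNA-binding protein Igf2bp1 (0.96 ± 0.24).

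The largest rises also held genes that followed 1 or 2 libraries. Cfd, an adipocyte protease (5.28), Cidec, a fat droplet protein (4.20), and Cyp2e1 (4.44) were at 137.9, 28.92 and 51.1 CPM in Bdep_combo replicate 4 and at 2.085 CPM or less in the other 9 libraries. Without that replicate Cfd and Cyp2e1 turned negative (-0.76 and -0.92, adjusted p = 0.718 and 0.512) and Cidec was not called (0.548). Cfd was also not called without WT_combo replicate 2, 4 or 5, nor Cyp2e1 without WT_combo replicate 2 or 4, and limma voom called none of these 3 genes, for which DESeq2 gave no adjusted p. Rn7s2, a signal recognition particle RNA, was at 2.83, 5.62, 180.5, 164 and 2.79 CPM in Bdep_combo and at 0.844, 3.04, 2.71, 3.26 and 2.15 CPM in WT_combo (4.86); it has near-identical copies, so its counts are uncertain. Olfr372, an olfactory receptor gene, was low but higher in every B-depleted library than in any WT library (0.243 ± 0.178 and 1.84 ± 0.449 CPM, 2.85 ± 0.73).

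Proliferation genes rose almost as a whole list: 25 of 28 cell-cycle genes were called higher and 0 lower (median 0.603, 0.239 with the Y-linked covariate). The promoters of Aurka and Cdc20, the 2 called members of smallest p among those named, are shown for 2 elements known from promoters of mitotic genes. Capitals mark the CCAAT box and the cell-cycle homology element TTTGAA on either strand, in the 250 bases before the RefSeq start.
Aurka, chr2:172370571-172370820, minus strand: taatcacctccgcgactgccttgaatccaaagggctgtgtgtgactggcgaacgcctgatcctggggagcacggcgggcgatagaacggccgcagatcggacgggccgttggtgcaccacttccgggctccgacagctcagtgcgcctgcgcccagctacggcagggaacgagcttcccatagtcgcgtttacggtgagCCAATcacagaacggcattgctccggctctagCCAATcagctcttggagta
Cdc20, chr4:118437344-118437593, minus strand: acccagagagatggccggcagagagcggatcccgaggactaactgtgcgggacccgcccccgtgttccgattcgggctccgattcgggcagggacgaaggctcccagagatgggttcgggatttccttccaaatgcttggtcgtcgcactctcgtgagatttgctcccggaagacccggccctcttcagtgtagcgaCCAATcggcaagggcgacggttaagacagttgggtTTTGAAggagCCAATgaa

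Of 24 cell-cycle genes with a RefSeq window 21 held CCAAT (87.5%, against 37.5% of all 27025 genes) and 6 held TTTGAA (25%, against 18.3%). These are shares of letters and say nothing of binding. Aurka, a mitotic kinase, was at 25.3, 17.3, 24.5, 12.9 and 11.9 CPM in WT_combo and at 34.3, 43.1, 36.8, 42.3 and 29 CPM in Bdep_combo (1.00 ± 0.17, adjusted p = 0.00429). Cdc20, which activates the anaphase-promoting complex, was at 19.8, 13.4, 19.5, 9.43 and 8.86 CPM and at 27.9, 27.9, 25.9, 29 and 23.3 CPM (0.90 ± 0.18, adjusted p = 0.00635). In both genes the lowest B-depleted library was above the highest WT library. Mcm7, part of the replication helicase (0.86 ± 0.21), and Ccnb1, cyclin B1 (0.83 ± 0.19), rose with them. Mki67, the marker Ki-67, went from 295 ± 98.5 to 449.5 ± 70.9 CPM (0.59 ± 0.17, adjusted p = 0.0185, lost without WT_combo replicate 4 (0.0538) or 5 (0.057)). The list count was 11, 13 and 16 without WT_combo replicate 4, WT_combo replicate 5 and Bdep_combo replicate 4, and 14 when only the 10 libraries were fitted.

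Lipid and amino acid synthesis rose in part. Of 22 cholesterol synthesis genes 13 rose and 0 fell (median 0.476, 0.348 with the Y-linked covariate; 8 without WT_combo replicate 4 or 5). Sqle, squalene epoxidase, was at 52.9, 50.3, 63, 27.8 and 25.5 CPM in WT_combo and at 96.7, 100.5, 87.7, 139 and 95.5 CPM in Bdep_combo (1.23 ± 0.23, adjusted p = 0.00516), and every B-depleted library lay above every WT library. Cyp51, lanosterol demethylase, rose too (0.89 ± 0.15). In the fatty acid list 9 of 16 rose (median 0.327, 0.271 with the Y-linked covariate). Fasn, fatty acid synthase, was at 176, 152, 195, 137 and 120.5 CPM and at 312, 319.9, 282, 628 and 218 CPM (1.16 ± 0.23, adjusted p = 0.0055), Gpam, which starts triglyceride synthesis, rose by 1.11 ± 0.27, and Scd1, the stearoyl desaturase, was at 1115 CPM in Bdep_combo replicate 4 and at 95.54 to 156.6 CPM in the other 4 (1.88 ± 0.49). Bdep_combo replicate 4, the library with adipocyte transcripts, was the highest for all 3 of Fasn, Gpam and Scd1, and the 3 calls held without it. The change of Scd1 ran from 0.55 to 2.11 when 1 library was left out. Scd1 was given no adjusted p by DESeq2. It was not called when only the 10 libraries were fitted or with the replicate block by description code.

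Phgdh, the first enzyme of serine synthesis, rose by 1.00 ± 0.23 and Asns, asparagine synthetase, by 0.92 ± 0.23, in a list of unfolded protein and amino acid stress genes where 6 of 18 rose and 1 fell (median 0.192, 0.101 with the Y-linked covariate). Of 28 cytosolic ribosomal protein genes 15 rose and 0 fell, with a median of 0.376 that was 0.00994 with the Y-linked covariate. Rplp0 went from 538 ± 83.4 to 811 ± 131 CPM (0.57 ± 0.15) and Rps2 from 324 ± 53.9 to 475 ± 61.4 CPM (0.53 ± 0.12). That count was 5 without WT_combo replicate 4 or 5, 7 to 9 without WT_combo replicate 2 or Bdep_combo replicate 1, 2, 3 or 4, and 24 without WT_combo replicate 3. Myc, a growth-promoting transcription factor, rose from 63 ± 22.6 to 109 ± 18.6 CPM (0.76 ± 0.18), and the respiratory chain gene Ndufa4 by 0.72 ± 0.15. Of 25 hypoxia and glycolysis genes (median 0.0502, -0.17 with the Y-linked covariate) 0 rose and 1 fell, Pfkp, a platelet-type phosphofructokinase (-0.49 ± 0.09, adjusted p = 0.00516). Leaving out 1 library gave up to 4 rises and up to 4 falls in that list, the most without WT_combo replicate 3 and Bdep_combo replicate 5.

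The rises of smallest p in the whole comparison included genes of another kind. Oxct2b, a testis-type ketone body transferase (ENSMUSG00000076438.5, chromosome 4, 123116266 to 123118000), was at 0.394, 0.381, 0.566, 0.237 and 0.391 CPM in WT_combo and at 2, 2.93, 1.56, 1.54 and 1.86 CPM in Bdep_combo (2.29 ± 0.30, adjusted p = 0.00182). Reads may be split between it and its close copy Oxct2a, so its level is uncertain. It too was called with the Y-linked covariate (1.99, adjusted p = 0.0477). Fzd8, a Wnt receptor, was at 23.6, 13.9, 21.1, 15.2 and 11.7 CPM and at 39.4, 39.6, 35.3, 39.7 and 37.6 CPM (1.15 ± 0.17), and Tead2, a transcription factor of the Hippo pathway, at 24.5, 21.4, 27.1, 14.4 and 14.4 CPM and 40.6, 51.5, 41.2, 43.4 and 34.3 CPM (1.03 ± 0.14), both at adjusted p = 0.0026. The arms were apart in all 3. Others were the methionyl-tRNA synthetase Mars (0.48 ± 0.07) and Blcap (0.60 ± 0.09). Bmp7, a ligand of the TGF-beta family, rose by 1.31 ± 0.31. All these calls held without any 1 library. The other 2 genes called with the Y-linked covariate, Ggt6 (2.14, adjusted p = 0.0375) and Acta2, smooth muscle actin (0.99, adjusted p = 0.0375), were chosen here after their values were seen, and Acta2 was not called without the covariate (0.10).

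**Figure D4:**
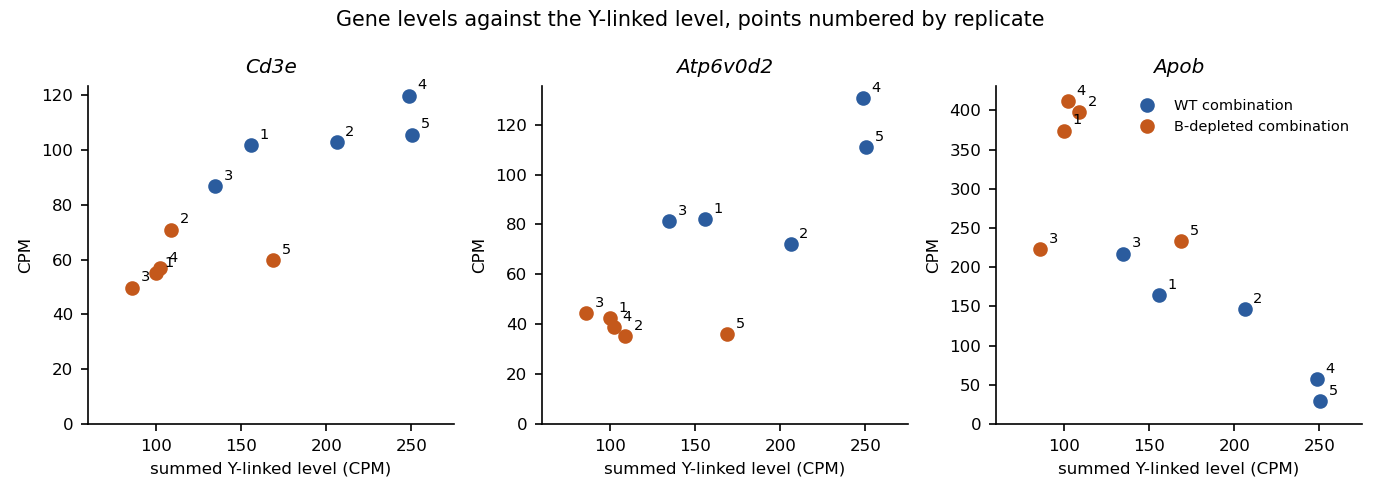
Levels of Cd3e, Atp6v0d2 and Apob in CPM against the summed Y-linked level of the same library, for the 5 WT and 5 B-depleted combination libraries, numbered by replicate. At a Y-linked level of 168.8 CPM, between WT replicates 1 and 2, Bdep_combo replicate 5 has 59.98 CPM of Cd3e, 36.13 CPM of Atp6v0d2 and 233.5 CPM of Apob. The arms do not overlap in these genes, as in 10.5% of all genes tested. With the Y-linked covariate Cd3e (-0.27) and Apob (0.95) were not called, and Atp6v0d2 was (-1.19). For Adgre1 and Alb, not plotted, Bdep_combo replicate 5 lies within the WT range. The part of the Y-linked level was not tested.

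Under isotype antibody the same label gave no gene past the threshold. The comparison of 6 B-depleted with 5 WT isotype libraries called 0 of 19061 genes by edgeR, with 563 at an unadjusted p below 0.05; DESeq2 called 5 and limma voom 0. Without replicates 3 and 5 of the B-depleted isotype arm, which held immunoglobulin transcripts at WT isotype levels, it also called 0 by edgeR, with 956 at an unadjusted p below 0.05. The B-cell genes Cd79a and Ms4a1 had fitted differences of -1.02 and -3.62, neither called, with levels of 0.374 ± 0.203 and 0.464 ± 0.351 CPM in WT and 0.206 ± 0.23 and 0.0281 ± 0.0453 CPM in B-depleted libraries. Differences of T-cell genes were -0.06 for Cd3e, -0.07 for Cd8a, -0.12 for Icos and -0.13 for Gzmb, and those of Apob, Aurka and Atp6v0d2 were -0.23, 0.03 and -0.05. Cd3e was at 27.9 ± 7.53 CPM in WT isotype, 27.1 ± 13.6 CPM in B-depleted isotype, 58.6 ± 7.88 CPM in Bdep_combo and 103 ± 11.8 CPM in WT_combo libraries, and Gzmb at 11.6 ± 3.42, 10.7 ± 3.87, 26.8 ± 3.5 and 52 ± 14.6 CPM in the same order. Apob was at 546 ± 57, 471 ± 59.6, 328 ± 92.1 and 123 ± 77.8 CPM, so that the WT_combo mean was the lowest of the 4. The depletion effects under the 2 antibody arms come from separate libraries, and over all genes their Pearson r was 0.164 and their Spearman rho 0.122, where genes are not independent. Of the 5545 genes called under the combination 56.4% had the same sign under isotype, against 53.8% of all genes tested.

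A test of the difference itself, the interaction of depletion and antibody, called 5 genes (0.0262%), with a positive difference in 3 (0.0157%) and a negative one in 2 (0.0105%). By the same edgeR test 4881 of 19061 genes had an unadjusted p below 0.05. The small count therefore does not show that the effects under the 2 antibody arms were alike. Hopx, a transcription cofactor, was at 3.97 ± 0.497 CPM in WT isotype and 5.7 ± 0.818 CPM in B-depleted isotype libraries, and went from 8.15, 11.7, 9.56, 13 and 10.1 CPM in WT_combo to 6.62, 6.78, 4.76, 5.52 and 5.64 CPM in Bdep_combo, so the sign of the depletion effect turned between the antibodies (0.50 and -0.86). Srrm4, a splicing factor better known from neurons, turned the other way (-0.51 under isotype, 0.96 ± 0.18 under the combination). Atp6v0d2 and Oxct2b differed between genotypes under the combination and were at 21.8 and 21.4 CPM and at 2.05 and 2.01 CPM in WT and B-depleted isotype libraries. The fifth was the pseudogene Gm49146. That the T-cell, liver and cell-cycle genes above passed under the combination and not under isotype is thus not shown to be a difference between the antibodies, since none of them was called in the interaction. The count of 5 was not stable: it was 1540 without WT_combo replicate 3, 1382 without Bdep_combo replicate 5, 361 without WT_combo replicate 1, and 0 to 5 without any other of these 10 libraries, and DESeq2 called 1210. Without the 2 isotype libraries labelled B-depleted that held immunoglobulin transcripts it was 0, with 2734 genes at an unadjusted p below 0.05.

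**Figure D5:**
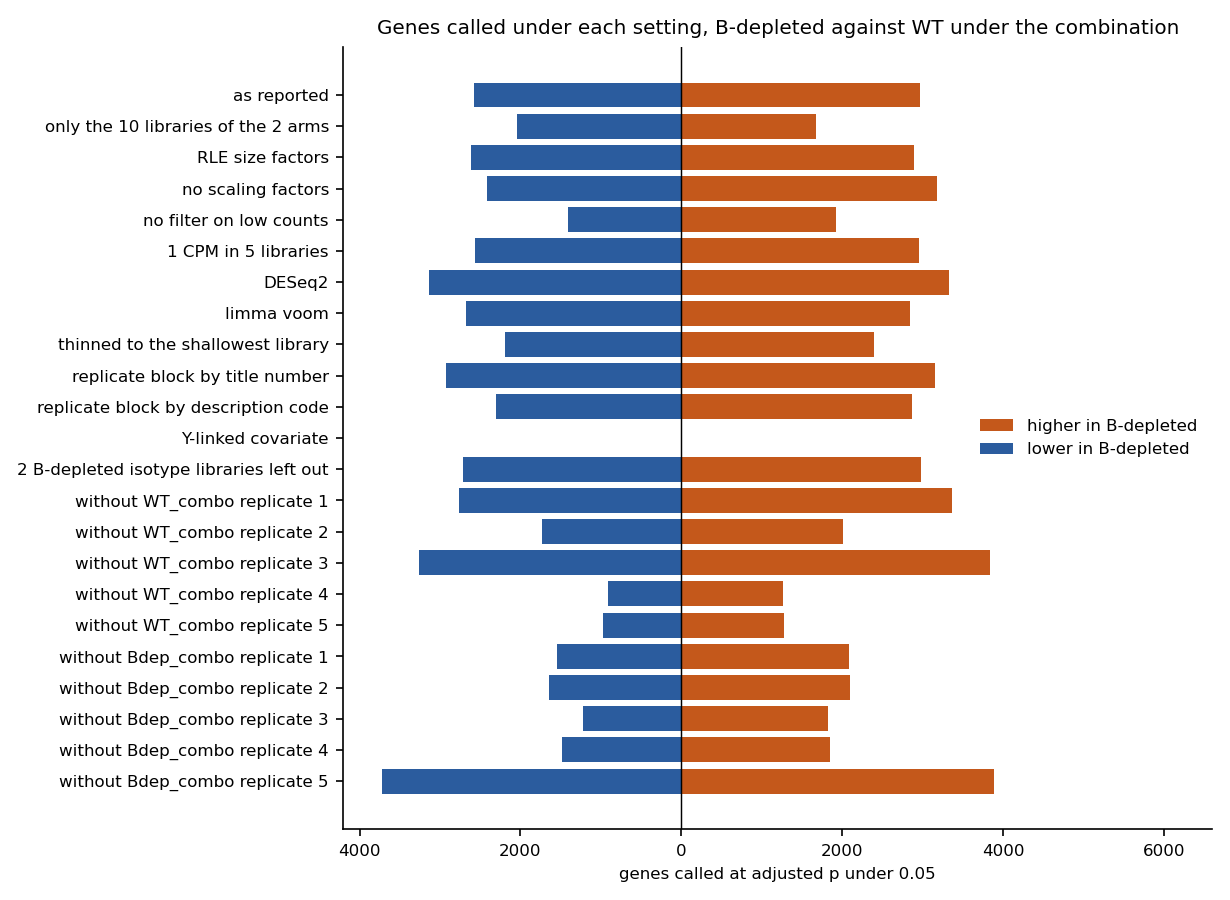
Number of genes called higher (right) and lower (left) in B-depleted tumours under the combination, for the reported model and each alternative. The bars run from 4 genes with the Y-linked covariate to 7606 without Bdep_combo replicate 5.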

How the data were processed

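Poly(A) RNA from frozen Hepa1-6 tumours of C57BL/6 mice was sequenced in 21 libraries (stranded mRNA libraries, per the labels' protocols). The authors deposited whole-number read counts per Ensembl gene for every library, with no normalization. The submitters' processing notes name cutadapt 2.4, STAR 2.7.2a and GRCm38; for the counting program, its strand setting and the annotation the sources used here give nothing. Of 55487 identifiers 55141 were matched to a symbol, and the remaining 346 hold 0.037% of counts. Coordinates are from GENCODE (GRCm38) and promoters from RefSeq (GRCm38.p6).

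All 21 libraries entered 1 edgeR model (version 4.0.16, R 4.3.3) with 4 groups, TMM factors (0.9532 to 1.029), a filter on low counts (minimum count 10) that kept 19061 genes, and robust quasi-likelihood tests at a Benjamini-Hochberg adjusted p of 0.05. SE is the fitted log2 fold change divided by the root of F. Levels in CPM used library totals without TMM factors. Fitted fold changes of genes near 0 depend on the prior count. Depth was 9523017 to 17782981 counts in the 10 combination libraries, and 9.52 counts make 1 CPM in the shallowest. On simulated counts of 18693 genes, 126 of 200 genes changed 2-fold were recovered (63%), with 6 false calls. Genes were drawn independently there, with few changed and no factor shared by the genes of a library. Neither rate therefore carries over to these data.

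Replicates differed beyond sampling noise in all 20 pairs compared. Title numbers were not taken as pairing the arms, since the labels name no shared animal. Correlations of deviations by title number were 0.0882, 0.0494, 0.449, -0.0591 and 0.553, which leaves the pairing unsettled. Genes are named by this rule: the 12 largest rises and falls at 1 CPM or more, the 6 of smallest p in each direction, called members of 50 gene lists (up to 4 each), 38 chosen genes and genes called in the interaction. Some genes that single libraries decide were left out of the text, and some others the rule selects are not reported here. The members, lists and tests were chosen with earlier results of these data known. Alternatives were other scaling, filters, DESeq2 1.42.0, limma voom 3.58.1, thinning, replicate blocks, a Y-linked covariate, leaving out each of the 10 libraries and, added later, 2 isotype libraries.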

Additional observations from a re-analysis of the deposited data

Results flagged for a closer look

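In 254 arms of 5 libraries, 38 values of 34 genes lay far from the other 4 by Dixon's criterion (0.71). Chance would flag about 1 in 20 groups if values were normal and independent, and genes here are not independent. For Cd79a, Iglc1 and Pvalb the other 4 libraries of the B-depleted arm were all at 0. Of the 38 values, 18 were in Bdep_combo replicate 5. It was the high value of its arm for the B-cell genes Ms4a1 (1.571 CPM), Cd79a (0.4284 CPM) and Iglc1 (0.0714 CPM), for Il7r (56.84 CPM), Nos2 (220.9 CPM), Ctsb (1645 CPM), Il1b (689.7 CPM), Mmp9 (346.7 CPM), Col1a1 (10790 CPM) and the Y-linked Ddx3y (62.69 CPM). It was the low value for Gbp8 (97.61 CPM), Nr5a2 (9.996 CPM), Igf2bp1 (90.25 CPM), Mcm7 (69.62 CPM), Gpam (70.4 CPM), Asns (74.33 CPM), Rplp0 (586.1 CPM) and Rps2 (367.7 CPM).

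Bdep_combo replicate 4 was high for 7 genes: the fat-tissue genes Cfd (137.9 CPM) and Cidec (28.92 CPM), Cyp2e1 (51.1 CPM), the lipid synthesis genes Sqle (139 CPM), Scd1 (1115 CPM) and Fasn (628.2 CPM), and Cxcl13 (4.549 CPM). Replicate 3 of that arm was high for Fga (15.63 CPM), replicate 2 for Col6a5 (10.32 CPM) and Col6a6 (6.702 CPM), and replicate 1 for Pvalb (0.525 CPM). Among WT_combo libraries, replicate 5 was high for Cxcl13 (25.28 CPM), Il1b (174.7 CPM) and Cyp2e1 (1.433 CPM), and replicate 4 for Col6a6 (84.4 CPM). Replicate 3 was high for Apoa1 (0.8177 CPM) and Ambp (3.648 CPM), and replicate 2 for Il2ra (32.67 CPM), Ccl22 (18.52 CPM) and Tchh (97.76 CPM).

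The depletion effect differed between the combination and isotype antibody, by the interaction test of edgeR, in 5 genes. The combination effect minus the isotype effect was -1.25 for Atp6v0d2 (adjusted p = 0.0484), 2.33 for Oxct2b (0.0345), -1.36 for Hopx (0.0241), 1.46 for Srrm4 (0.0345) and 5.26 for the pseudogene Gm49146 (0.0345), on the log2 scale. None of the 5 passed without the B-depleted isotype replicates 3 and 5.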

How the results depend on the processing

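The count of 5545 genes was 3343 with no filter on low counts and 4 with the Y-linked covariate, and 2182 to 7606 when 1 library was left out. With only the 10 libraries it was 3727, with 1679 higher and 2048 lower against 2963 and 2582 in the 4-group model. The isotype count of 0 was 1 with no filter, 5 with DESeq2, 1 with either replicate block and 16 with the Y-linked covariate. The interaction count of 5 was 1210 with DESeq2, 0 after thinning, with the block by title number or with the Y-linked covariate, and 0 to 1540 when 1 library was left out. Replicates 3 and 5 of the B-depleted isotype arm were left out together, an alternative chosen after the data were seen: the 3 counts were then 5695, 0 and 0. Isotype libraries were not left out in turn. The replicate block by title number gave 6071 genes and that by description code 5171; 3 of 5 WT_combo libraries correlated best with their own title number, a hint from the data and not the design.

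Signs turned with the Y-linked covariate for Adgre1 (0.1237), Col1a1 (0.5155), Pecam1 (0.269), mt-Co1 (-0.08337), mt-Nd1 (-0.01649) and Xist (-0.01155). Il1b turned with limma voom (-0.1568), with the replicate block by description code (-0.03759) and without Bdep_combo replicate 5. When 1 library was left out, Il1b ran from -1.425 to 2.251, Mmp9 from -0.05573 (without Bdep_combo replicate 5) to 0.9363, Cfd from -0.7589 (without Bdep_combo replicate 4) to 6.147, Cyp2e1 from -0.9247 (without the same library) to 5.368, and Cxcl13 from -3.382 to 0.4876 (without WT_combo replicate 5). Of the 114 named genes called, 112 were not called with the Y-linked covariate, 24 with no filter (among them Igkc, Cd3e, Cd4, Cd274, Ccl5, Cd74 and Afp) and 14 with limma voom (among them Ighg2b, Jchain, Fga, Apoa1 and Elovl2). Of the rise and fall counts of the 50 lists, 30 dropped by over 1.5 times with no filter, where T-cell receptor falls were 7, type I interferon falls 8, class II falls 3, macrophage falls 3, dendritic cell falls 3, liver plasma protein rises 2 and skeletal muscle falls 0. With only the 10 libraries 23 dropped and 5 grew, cholesterol synthesis rises being 8, ribosomal protein rises 7 and hepatocyte factor rises 5. Interferon-gamma falls were 16 with DESeq2 and 20 with the block by title number. The cause was not tested. Depth limits genes below about 0.3 CPM, the level of 3 counts in the shallowest library (0.315 CPM).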

Other observations

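Further gene groups were counted in the same comparison, where 15.5% of all genes tested were called higher and 13.5% lower. Of 16 natural killer receptor genes 7 fell and 1 rose (median -1.07, -0.186 with the Y-linked covariate), and of 10 receptors for antibody 6 fell and 1 rose (-0.627 and -0.101). Leaving out 1 library gave 0 to 3 falls among natural killer receptors without WT_combo replicate 2, 4 or 5 or any of Bdep_combo replicates 1 to 4, and 0 to 2 among antibody receptors without WT_combo replicate 4 or 5 or any of Bdep_combo replicates 1 to 4. With no filter on low counts 3 natural killer receptors and 0 antibody receptors fell. Of 20 genes of lipid-associated macrophages 10 fell (median -0.555, -0.163 with the covariate), a count of 4 to 6 without WT_combo replicate 4 or 5 or Bdep_combo replicate 1, 2 or 3. Mast cell, basophil and eosinophil genes gave 0 of 13 calls in the 4-group edgeR model, with a median of -1.18 (0.228 with the covariate) and all 13 fold changes negative. In that list 7 fell when only the 10 libraries were fitted, 6 without the B-depleted isotype replicates 3 and 5, 4 with limma voom, 2 with DESeq2, 2 without Bdep_combo replicate 2 and 1 after thinning. Red blood cell genes gave 0 of 5 calls (-0.225 and -1.68). Of 10 B-cell survival and lymphoid aggregate genes 3 fell and 1 rose (-0.667 and -0.156). There the falls were 5 without WT_combo replicate 1 or Bdep_combo replicate 5 and 1 without WT_combo replicate 2 or Bdep_combo replicate 3, and the rises 0 without WT_combo replicate 4.

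Of 12 apolipoprotein genes 5 rose (median 0.487, 0.362 with the Y-linked covariate), and of 15 Wnt target genes 4 rose and 1 fell (0.601 and 0.00438); the rises among Wnt targets were 9 without WT_combo replicate 3 and 10 without Bdep_combo replicate 5. Of 24 nuclear-encoded respiratory chain genes 9 rose and 2 fell (0.127 and -0.00956), with 4 or 5 rises without WT_combo replicate 2, 4 or 5 or Bdep_combo replicate 1, 3 or 4. TGF-beta ligands and regulators gave 3 rises of 21 (0.03 and 0.118), and metalloproteinases and inhibitors 5 falls and 1 rise of 21 (-0.288 and 0.209), with 12 falls without Bdep_combo replicate 5. Cytochrome P450 genes gave 2 rises and 3 falls of 20 (-0.116 and 0.136), and urea cycle and arginine genes 3 rises and 1 fall of 10 (0.222 and 0.154). These last 4 lists moved by over 1.5 times without single libraries. Over all genes tested 15.5% were called higher and 13.5% lower, and the TGF-beta and cytochrome P450 counts lie near or below these shares.

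By chromosome, the share of tested genes called higher was 28.8% of 743 on chromosome 15, 26.2% of 604 on chromosome 19 and 21.9% of 1404 on chromosome 11, against 15.5% of all genes tested. The share called lower was 21.1% of 679 on chromosome 14, 20.7% of 680 on chromosome 12, 18.7% of 1055 on chromosome 9 and 18.7% of 546 on the X chromosome, against 13.5% of all. Chromosome medians of the fold change ran from -0.157 on chromosome 12 to 0.194 on chromosome 15, leaving out the 8 tested genes of the Y chromosome. These chromosomes were singled out after their values were seen, and no difference between chromosomes was tested.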
